A study of Mus musculus and Acomys cahirinus with 25 samples.

Results

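The wound margin of the laboratory mouse at post-wound day 14 (PWD14) was examined here by setting its epidermis against its dermis. The members were the libraries whose labels gave the region as margin and the genotype as wild type, 2 from dorsal epidermis and 2 from dorsal dermis, which is 4 of the 25 libraries of the series. The series profiled healing skin wounds of the laboratory mouse, Mus musculus, and of the African spiny mouse, Acomys cahirinus, by RNA-seq of poly(A) RNA. It asked how a wound bed comes to form new hair follicles, a process called wound-induced hair neogenesis, which in the laboratory mouse takes place in the wound center and not in the margin.

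Per the study's methods, a full-thickness square of back skin of 1 × 1 cm was removed from 4-week-old C57BL/6J mice of both sexes and left to close. At harvest the middle of the wound was taken with a punch, and what was left of the wound tissue was called the margin. Epidermis and dermis were then parted by hand under a dissecting microscope. All 4 libraries came from wild-type animals, and the labels name no transgene and no treatment other than the wound. Which animals gave which library, and how many animals were pooled, is not given in the sources used here, so the p-values measure only the spread between these 2 samples per tissue. For the tissue difference of the wound center, the 2 wild-type center epidermis libraries and the center dermis libraries of replicates 1 and 2 were used, which were also taken at PWD14. For the tissue difference of the spiny mouse, the 2 epidermis and 2 dermis libraries of PWD21 were used, from whole wounds of wild-type animals whose tissues were parted after trypsin.

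The epidermis libraries were paired-end and the dermis libraries single-end, so tissue and read type cannot be told apart in the margin. The center libraries had the same read types, so the same holds there, whereas both tissues of the spiny mouse were read single-end. In the margin, the reads counted on genes were 35282463 and 86532134 in epidermis and 23219721 and 22190444 in dermis. Genes with 1 to 40 counts held an even count in 77.18% and 74.75% of cases in margin epidermis and in 48.63% and 49.78% in margin dermis. In center epidermis, also paired-end, the shares were 52.68% and 58.81%. Genes with 1 to 10 counts numbered 530 and 904 in margin epidermis and 1579 and 1375 in center epidermis. How far this bears on setting margin beside center was not tested. The margin epidermis libraries differed from each other by a chi-square of 375 per degree of freedom over genes, against 59.2 for the margin dermis libraries. Neither pair was therefore 1 library deposited more than once. Of the mitochondrial genes, COX2, COX3, ATP8, ND3 and ND4L had no count in either dermis library, while COX1 had 178317 and 233744 counts there. Values below are CPM, which are counts scaled to a common library size, after TMM scaling of the libraries compared. They give a level within 1 gene and are not compared between genes. A log2 fold change is the fitted epidermis level over the dermis level with its standard error (SE), and a gene was called at a false discovery rate (FDR) under 0.05.

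The epidermis is a layered epithelium in which basal keratinocytes divide on a basement membrane, withdraw from the cell cycle and move outward as they build keratin filaments, desmosomes and finally the cross-linked cornified envelope. The dermis below is a collagen-rich matrix laid down by fibroblasts and crossed by vessels, nerves and immune cells. Hair follicles and sebaceous glands are epithelial too, but they reach down into the dermis, where the dermal papilla at the follicle base signals to the epithelial matrix above it.

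Several gene lists of these layers lay largely or wholly in 1 tissue of the margin, while others held members on both sides. Epidermal keratins, cornified envelope genes, desmosomal genes and epidermal transcription factors were higher in the epidermis, and collagens, fibroblast, endothelial, macrophage and Schwann cell genes were higher in the dermis. The keratins of the hair shaft and of the inner root sheath were higher in the dermis libraries, which is the side opposite to the one that holds other keratinocyte genes. Of 14964 genes tested, 7141 were called (47.7%), of which 3126 were higher in epidermis (20.9%) and 4015 higher in dermis (26.8%). The 4 libraries did not overlap between tissues for 11284 genes, 7135 of the called genes among them. With library size alone in place of TMM the counts were 1599 and 6192, the epidermis-high share of calls went from 43.8% to 20.5%, and the median log2 fold change of all genes went from -0.16 to -0.98. Without dermis replicate 1 the count of called genes was 4508 and without dermis replicate 2 it was 4573. With 10 counts asked for in every library, 2476 genes were higher in epidermis and 2396 higher in dermis. In the main fit a difference past 4-fold was seen for 4835 called genes, 1630 higher in epidermis and 3205 higher in dermis. In bulk samples, fewer cells of a type and less RNA per cell cannot be told apart.

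The 10 genes with the widest fitted difference in each direction had no count at all in 1 tissue, so their folds are given as lower bounds against 3 counts in a library, and genes with counts in both tissues can have folds past these bounds. In the epidermis the highest bounds of the 10 belonged to Scgb1b27, a secretoglobin, with 62.3 and 28 CPM in the 2 libraries and at least 449-fold above dermis, and to Nmu, which encodes the neuropeptide neuromedin U, at least 286-fold. The protease inhibitor gene Spink7 was at least 203-fold higher, the nucleotide receptor gene P2ry4 at least 195-fold and Sprr2g at least 141-fold. RefSeq lists Sprr2g as a transcribed pseudogene, and counts of near-identical family members are uncertain. Tcf23 (234-fold), Slc16a5 (162-fold), Grm4 (141-fold) and the mitochondrial COX2 (266-fold) and COX3 (124-fold) made up the other lower bounds of this set of 10. The mitochondrial COX1 had 178317 and 233744 counts in the same dermis libraries. Whether reads of COX2 and COX3 were counted alike in both tissues was not tested. In the dermis, Kera, which encodes the small proteoglycan keratocan, stood at 120.2 and 129 CPM and was at least 1047-fold above epidermis. Ptprb, a receptor phosphatase of endothelium, stood at 124 and 114 CPM and at least 999-fold. The mast cell chymase gene Cma1 was at least 567-fold higher, the sialomucin gene Podxl at least 522-fold and the adhesion molecule gene Vcam1 at least 413-fold. Galnt16 (819-fold), the netrin receptor gene Unc5c (675-fold), the potassium channel gene Kcna1 (533-fold), Col28a1 (486-fold) and the matrilin gene Matn4 (443-fold) gave the remaining lower bounds. That the tissues did not overlap for these 20 genes was set by the rule that picked them. Of the called genes, 816 had no count in either epidermis library and 92 had none in either dermis library. In the center contrast these numbers were 116 and 482.

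All 11 basal keratinocyte genes were higher in epidermis, with a median log2 fold change of 3.81 against -0.16 over all genes tested. Krt5, one of the basal keratin pair, stood at 7175 and 11294 CPM in epidermis and 180.5 and 330.1 CPM in dermis (log2 fold change 5.18 ± 0.90, FDR 0.000969). Its partner Krt14 stood at 4483 and 9016 CPM and 304 and 367 CPM (4.33 ± 0.77, FDR 0.00111). Both keratins were therefore well above 0 in the dermis libraries too, though the tissues did not overlap. Sfn, which encodes the keratinocyte 14-3-3 protein stratifin, stood at 1033 and 1674 CPM against 26.3 and 37.4 CPM (5.41 ± 0.50, FDR 1.95e-05). Lgals7, the galectin of stratified epithelia, stood at 1480.4 and 2475 CPM against 97 and 185 CPM (3.81 ± 0.54, FDR 0.00027). The list was summed at 17460 and 27540 CPM in the epidermis libraries and 1070 and 1586 CPM in the dermis libraries. With all 11 wild-type laboratory mouse libraries in 1 fit, FDR was 0.0687 for Krt14.

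Of 12 suprabasal genes, 8 were called and all of these were higher in epidermis. The 2 most abundant members were not called although their folds were among the widest of the list. Krt1, the type II keratin of differentiating layers, stood at 99106 and 130419 CPM in epidermis and 300.3 and 722 CPM in dermis (log2 fold change 7.81 ± 3.27, FDR 0.0719). Krt10, its type I partner, stood at 84246 and 103866 CPM and 453 and 1049 CPM (6.97 ± 2.85, FDR 0.0662). Their libraries did not overlap between tissues, and Krt1 alone took 7.074% and 10.23% of the reads on genes of the epidermis libraries. Under the other settings run, FDR went as low as 3.9e-57 and as high as 0.251 for Krt1, and from 1.55e-48 to 0.251 for Krt10. Calml3, an epithelial calmodulin-like protein, stood at 9385 and 4275 CPM against 28.6 and 55.6 CPM (7.34 ± 0.92, FDR 0.000123), and Dmkn, which encodes dermokine, at 8538 and 9774 CPM against 143 and 307 CPM (5.35 ± 0.90, FDR 0.00082). Krt77, a keratin of sweat ducts and suprabasal cells, overlapped between tissues at 48.9 and 22.2 CPM and 35.7 and 119.9 CPM (-1.14 ± 0.55, FDR 0.111; named after its values were seen).

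The cornified envelope is the protein shell that replaces the plasma membrane of the outermost keratinocytes, and most of its genes lie side by side in the epidermal differentiation complex of chromosome 3. Of 28 members tested, 26 were higher in epidermis, 1 was higher in dermis and 1 was not called, with a median log2 fold change of 6.69 (6.62 with the members that lack counts in dermis set to their bounds). Rptn, which encodes repetin, was nearly equal in the epidermis libraries at 10557 and 9361 CPM and stood at 49.98 and 18.7 CPM in dermis (8.18 ± 1.08, FDR 0.000167). Hrnr, which encodes hornerin, stood at 7756 and 5567 CPM against 46.7 and 86.5 CPM (6.64 ± 0.84, FDR 0.000124). Casp14, the caspase of terminal keratinocyte differentiation, stood at 7753 and 4651 CPM against 42.8 and 73.7 CPM (6.73 ± 0.83, FDR 0.000107). No epidermis library of these 3 genes came near the dermis range. Asprv1, the protease that processes filaggrin, stood at 2805 and 4225 CPM against 98.9 and 211 CPM (4.5 ± 0.65, FDR 0.000288). Sprr4 was the member that went the other way, at 0.754 and 1.27 CPM in epidermis and 6.2 and 15.4 CPM in dermis (-3.31 ± 0.76, FDR 0.0053). Without dermis replicate 2 its FDR was 0.0971.

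The promoters of 4 envelope genes are shown because they share a TATAAA core in the same place, which is in capitals. Each line gives the 60 bases before the annotated start from RefSeq on GRCm38.p6, the build also called mm10, read 5′ to 3′ on the gene's strand, at chr3:93393639-93393698 (plus strand) for Rptn, chr3:92083143-92083202 (minus) for Lor, chr3:93319689-93319748 (plus) for Hrnr and chr3:92573736-92573795 (minus) for Ivl.
Rptn: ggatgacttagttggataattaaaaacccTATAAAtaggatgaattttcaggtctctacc
Lor: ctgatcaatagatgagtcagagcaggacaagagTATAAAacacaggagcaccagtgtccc
Hrnr: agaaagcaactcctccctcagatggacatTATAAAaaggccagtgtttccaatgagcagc
Ivl: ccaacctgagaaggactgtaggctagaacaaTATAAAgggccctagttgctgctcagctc

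The core began 31, 27, 31 and 29 bases before the start in Rptn, Lor, Hrnr and Ivl. Lor, which encodes the main envelope protein loricrin, stood at 1544 and 4117 CPM in epidermis and 47.6 and 109 CPM in dermis (log2 fold change 5.18 ± 0.72, FDR 0.00023). Ivl, which encodes involucrin, stood at 2032 and 1791 CPM against 17.4 and 35.4 CPM (6.18 ± 0.57, FDR 2.08e-05; both named after their values were seen). A TATAAA on the gene's strand within 40 to 16 bases before the start was present in 12 of 29 envelope genes with a promoter entry (41.4%), in 650 of 27025 genes of the table (2.41%), and in 256 of 11308 genes tested in the margin (2.26%). Among the called genes it was present in 60 of 2383 that were higher in epidermis (2.52%) and in 120 of 2952 that were higher in dermis (4.07%), and among genes that were not called in 76 of 5973 (1.27%). Neighbouring genes of 1 family share sequence by descent, so these promoters are not independent of each other.

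Keratins and proteases of wound-edge epidermis were also on the epidermal side, with 1 exception among the abundant ones. Krt16 stood at 3854 and 6032 CPM in epidermis and 82.4 and 34.9 CPM in dermis (log2 fold change 6.4 ± 0.79, FDR 0.000111). Krt6b stood at 2029 and 3144 CPM against 90.1 and 35.8 CPM (5.36 ± 0.65, FDR 9.84e-05) and Krt6a at 1284 and 2312 CPM against 114 and 59.6 CPM (4.37 ± 0.55, FDR 0.000127). These 3 are the stress keratins that keratinocytes switch on at a wound edge and that the outer root sheath of the follicle makes all the time. Krt17, the fourth, lay closer together, without overlap, at 183 and 288 CPM and 124 and 141 CPM and was not called (0.83 ± 0.33, FDR 0.0619). Without epidermis replicate 1 it was called, at FDR 0.00483. In all, 4 of 7 were higher in epidermis and none higher in dermis.

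Of 22 kallikrein, serpin and Spink genes, 16 were higher in epidermis and 5 higher in dermis. Klk7, the protease that cuts desmosomes during shedding, stood at 9002 and 3684 CPM against 96 and 136 CPM (log2 fold change 5.77 ± 0.83, FDR 0.000295). Its inhibitor gene Spink5 stood at 2780.2 and 2353 CPM against 61.9 and 133 CPM (4.72 ± 0.59, FDR 0.000115), and Serpinb5, which encodes maspin, at 2004 and 1797 CPM against 70.8 and 107 CPM (4.42 ± 0.49, FDR 5.43e-05). The serpins on the dermal side were others. Serpinh1, the collagen chaperone, stood at 55.4 and 77.7 CPM in epidermis and 1672 and 1594 CPM in dermis (-4.61 ± 0.46, FDR 3.20e-05). Serpine2, an inhibitor of thrombin and plasminogen activators, stood at 1.35 and 1.21 CPM and 316 and 166 CPM (-7.57 ± 0.50, FDR 6.09e-06), and Serping1, the C1 inhibitor, at 0 and 0.589 CPM and 254 and 272 CPM (-9.33 ± 0.64, FDR 6.09e-06).

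The barrier lipid, junction and transcription factor lists were one-sided. All 17 barrier lipid genes were higher in epidermis, with a median log2 fold change of 4.58. Elovl4, which makes very long-chain fatty acids for ceramides, stood at 3034 and 1686 CPM against 80.5 and 211 CPM (4.02 ± 0.63, FDR 0.00049), Abca12, the lamellar body lipid transporter, at 654 and 620.2 CPM against 12.2 and 32.8 CPM (4.82 ± 0.51, FDR 4.07e-05), and Sdr9c7 at 806 and 461 CPM against 4.32 and 12 CPM (6.27 ± 0.58, FDR 2.04e-05). Of 24 junction genes, 23 were higher in epidermis and none in dermis. Dsp, which encodes desmoplakin, stood at 9599.8 and 8013 CPM against 129.7 and 281 CPM (5.42 ± 0.89, FDR 0.000706) and the desmosomal Perp at 8616 and 7467 CPM against 284 and 346 CPM (4.67 ± 0.79, FDR 0.000845). Cdh1, which encodes E-cadherin, stood at 1576 and 1009 CPM against 28.8 and 44.6 CPM (5.14 ± 0.49, FDR 2.39e-05; named after its values were seen). Of 20 epidermal transcription factors, 18 were higher in epidermis and none in dermis. Trp63, which keeps the epidermal fate, stood at 746 and 450.5 CPM against 18 and 29 CPM (4.67 ± 0.44, FDR 2.37e-05). Klf4 stood at 626 and 645 CPM against 45.7 and 67.9 CPM (3.48 ± 0.37, FDR 4.72e-05), Grhl1 at 644 and 631 CPM against 18.4 and 34.2 CPM (4.6 ± 0.43, FDR 2.11e-05) and Zfp750 at 489 and 469 CPM against 10.3 and 11.1 CPM (5.48 ± 0.37, FDR 6.38e-06), all 3 regulators of terminal differentiation.

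**Figure D1:**
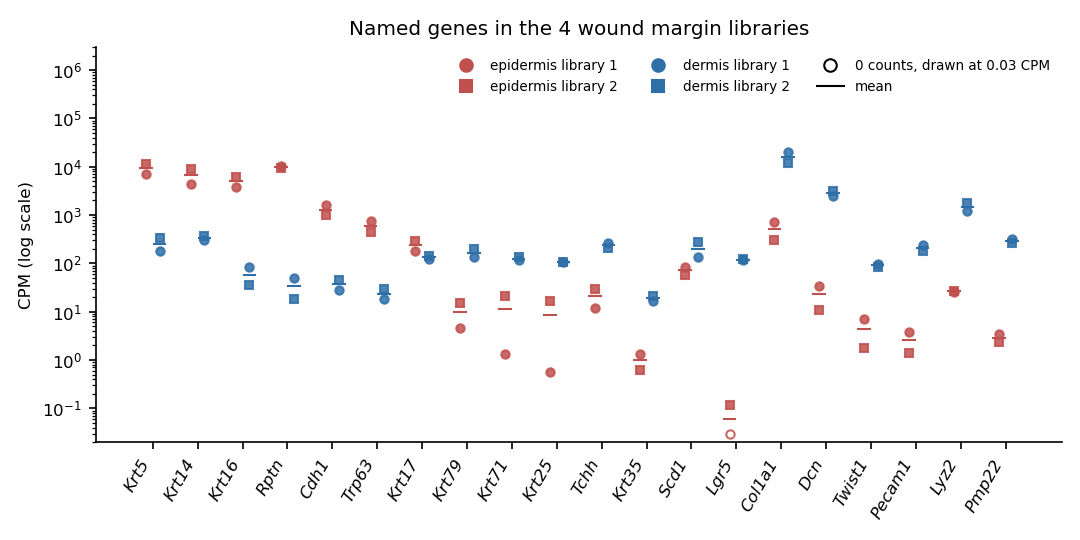
CPM after TMM scaling on a log axis for 20 genes in each of the 4 wound margin libraries, epidermis in red and dermis in blue, with a bar at the mean of each tissue and open circles for 0 counts. Krt5 to Trp63 stood higher in epidermis, Krt17 lay closer together, Krt79 to Krt35 and Scd1 stood higher in dermis beside Lgr5, Col1a1, Dcn, Twist1, Pecam1, Lyz2 and Pmp22, and no gene shown had overlapping tissues.

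The dermal matrix lists were as one-sided in the other direction. All 15 fibrillar and network collagen genes were higher in dermis, with a median log2 fold change of -5.3. Col3a1, the collagen of young scar and granulation tissue, stood at 1317 and 248 CPM in epidermis and 37543 and 31036 CPM in dermis (-5.46 ± 1.7, FDR 0.023). The 2 chains of type I collagen stood at 717 and 305 CPM and 20012 and 11723 CPM for Col1a1 (-4.96 ± 1.14, FDR 0.00508) and at 565 and 159 CPM and 35592 and 19427 CPM for Col1a2 (-6.25 ± 1.57, FDR 0.00814). For these 3 collagens epidermis library 1 was more than 2 times library 2, and the tissues did not overlap. Of 22 fibroblast genes, 20 were higher in dermis and none in epidermis. Dcn, which encodes the collagen-binding proteoglycan decorin, stood at 34.3 and 11 CPM and 2517 and 3140.4 CPM (-6.99 ± 0.74, FDR 4.26e-05), Lum, which encodes lumican, at 32.1 and 2.45 CPM and 3396 and 3377 CPM (-7.67 ± 1.12, FDR 0.000331), and Fstl1, a secreted follistatin-like protein, at 13.5 and 5.97 CPM and 3652 and 3146 CPM (-8.49 ± 0.75, FDR 1.64e-05). All 16 small proteoglycan and elastic fiber genes were higher in dermis, with a median of -7.12, Aspn, Bgn, Mfap4 and Ogn being the most abundant of them. The matricellular proteins, which tune how cells grip the matrix, had 13 of 15 members higher in dermis and none in epidermis. Sparc stood at 489 and 291 CPM and 14002 and 13162 CPM (-5.12 ± 1.03, FDR 0.00233), Postn, which encodes periostin, at 517 and 183 CPM and 8825 and 9787 CPM (-4.73 ± 0.92, FDR 0.00194), and Fn1, which encodes fibronectin, at 34.3 and 42.7 CPM and 1418 and 1104 CPM (-5.03 ± 0.44, FDR 1.65e-05).

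Contractile and protease genes of wound fibroblasts were mostly on the dermal side. Acta2, the smooth muscle actin that marks myofibroblasts and vessel walls, stood at 6.99 and 7.9 CPM in epidermis and 259 and 139 CPM in dermis (log2 fold change -4.73 ± 0.42, FDR 1.67e-05). Mylk, the myosin light chain kinase, stood at 2.62 and 4.58 CPM and 265 and 187 CPM (-5.91 ± 0.43, FDR 7.63e-06), whereas Tpm2, a tropomyosin, overlapped between tissues at 118 and 231 CPM and 156 and 112 CPM (0.38 ± 0.37, FDR 0.433). The list had 10 of 12 members higher in dermis and none in epidermis. Of 20 matrix metalloproteinase and TIMP genes, 14 were higher in dermis and none in epidermis. Mmp14, the membrane-bound collagenase, stood at 64.7 and 61.9 CPM and 1628 and 1257 CPM (-4.51 ± 0.44, FDR 2.76e-05) and Mmp2, the gelatinase it activates, at 20.3 and 31.8 CPM and 872 and 709 CPM (-4.91 ± 0.42, FDR 1.53e-05). Mmp9, the other gelatinase, overlapped at 14.1 and 13 CPM and 20.1 and 5.69 CPM (0.08 ± 0.60, FDR 0.93; named after its values were seen).

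The transcription factors of epithelial-mesenchymal transition were followed one by one, since Twist1 is the factor the study turned to. Twist1 stood at 6.91 and 1.8 CPM in the epidermis libraries and 98.4 and 84.2 CPM in the dermis libraries (log2 fold change -4.52 ± 0.57, FDR 0.00013). Twist2 stood at 1.27 and 1.15 CPM and 56.4 and 26.6 CPM (-5.12 ± 0.59, FDR 7.23e-05). Zeb1 stood at 5.12 and 2.3 CPM and 99.5 and 105 CPM (-4.87 ± 0.46, FDR 2.33e-05). These 3 were above 0 in both epidermis libraries and were higher in dermis. Epidermis library 1 held more of Twist1 and Zeb1 than library 2. It also held more of Zeb2, though not of Snai1, and more summed collagen transcripts, at 3287 and 1104 CPM. The part of dermal transcripts in the epidermal level of Twist1 was not tested. Zeb2 stood at 14.1 and 4.92 CPM and 288 and 303 CPM (-5.01 ± 0.51, FDR 3.26e-05) and Snai1 at 0 and 0.265 CPM and 18.1 and 12.5 CPM (-6.32 ± 0.91, FDR 0.000198). Snai2, which basal keratinocytes also use at wound edges, was not called, at 52.8 and 42.3 CPM in epidermis and 32.5 and 28.9 CPM in dermis (0.63 ± 0.34, FDR 0.157). Its libraries did not overlap between tissues. In all, 8 of 10 members were higher in dermis and none in epidermis.

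Markers of cells that live in the dermis followed the matrix. All 16 endothelial genes were higher in dermis, with a median log2 fold change of -8.2 (-7.68 with bounds). Pecam1 stood at 3.73 and 1.39 CPM in epidermis and 234 and 181 CPM in dermis (-6.48 ± 0.51, FDR 9.76e-06). All 15 macrophage genes were higher in dermis, with a median of -4.36. Lyz2, the myeloid lysozyme, stood at 25.4 and 26.9 CPM and 1210.5 and 1764 CPM (-5.83 ± 0.48, FDR 1.25e-05), and Apoe, which other skin cells make as well, at 358 and 781 CPM and 1532 and 1418 CPM (-1.37 ± 0.48, FDR 0.0374). Of 12 Schwann cell genes 10 were higher in dermis and 1 in epidermis. Pmp22, a myelin protein gene that fibroblasts express as well, stood at 3.38 and 2.36 CPM and 322 and 261 CPM (-6.71 ± 0.42, FDR 6.03e-06), and the member on the other side was the neuregulin receptor gene Erbb3, which keratinocytes express too, at 96.4 and 87 CPM and 15.2 and 25.8 CPM (2.16 ± 0.37, FDR 0.000863). Of 13 adipocyte genes 6 passed the filter, 2 of them with no count in epidermis and so through the dermis alone. Of the 6, 5 were higher in dermis, and as few as 1 under the other settings run. Cd36, the fatty acid transporter, stood at 0.318 and 0.869 CPM and 117 and 111 CPM (-7.37 ± 0.49, FDR 6.09e-06). Apoe lost its call without dermis replicate 1 (FDR 0.128), without dermis replicate 2 and without epidermis replicate 1.

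Other leukocyte lists and the pigment cell and muscle lists followed. Of 12 lymphocyte and Langerhans cell genes, 3 were higher in epidermis and 2 in dermis, which is near the shares over all genes tested (20.9% and 26.8%). Cd207, which encodes langerin of the dendritic cells resident in epidermis, stood at 55.4 and 29.9 CPM in epidermis and 3.69 and 5.04 CPM in dermis (log2 fold change 3.28 ± 0.50, FDR 0.000404). Ptprc, carried by all leukocytes, was on the dermal side at 50.3 and 25 CPM and 83.6 and 98.3 CPM (-1.28 ± 0.38, FDR 0.0189), and Cd3g, which encodes a chain of the T cell receptor complex, was not called at 5.32 and 4.63 CPM and 5.46 and 6.63 CPM (-0.29 ± 0.60, FDR 0.72). Of 7 neutrophil genes, 1 was higher in epidermis and 2 in dermis, also near those shares. Cxcr2, a chemokine receptor shared by neutrophils and keratinocytes, stood at 91.4 and 30.9 CPM and 6.74 and 1.17 CPM (3.95 ± 0.74, FDR 0.00158), whereas Csf3r, the receptor for granulocyte colony-stimulating factor, stood at 0 and 0.265 CPM and 22.9 and 13.8 CPM (-6.59 ± 0.90, FDR 0.000136). Of 10 melanocyte genes 6 were higher in dermis and none in epidermis, Dct, an enzyme of pigment synthesis, standing at 0 and 0.413 CPM and 3.65 and 6.17 CPM (-4.08 ± 1.01, FDR 0.00704). Of 6 skeletal muscle genes tested, Tnni2 and Mylpf were higher in epidermis and 3 in dermis, and every library of the 6 was below 10 CPM. The call of Tnni2 was lost under 8 of 13 other settings, FDR reaching 0.272, and that of Ptprc under 3. FDR was 0.118 for Ptprc without dermis replicate 2, and it was 0.123 for Mylpf without epidermis replicate 2 and 0.08 for Dct with the older quasi-likelihood estimate of edgeR.

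**Figure D2:**
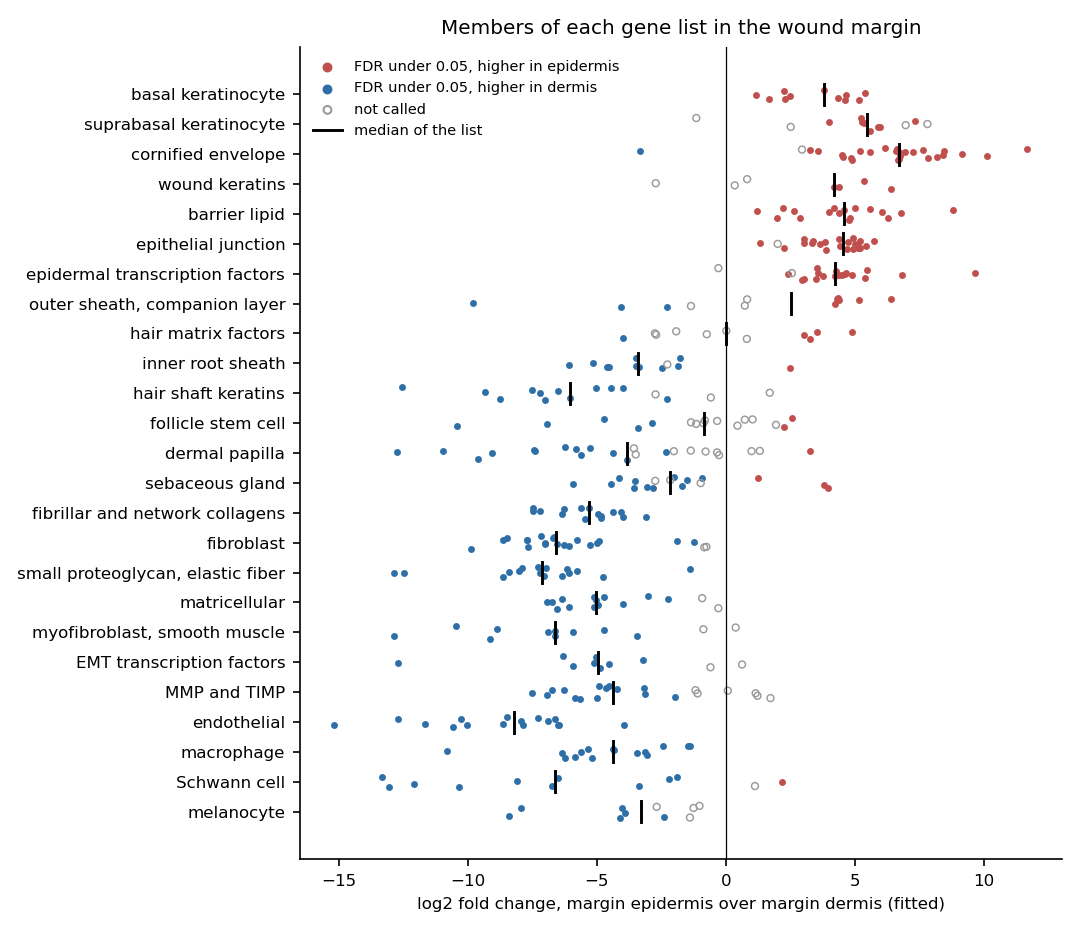
Fitted log2 fold change of each tested member of 25 gene lists in the wound margin, epidermis over dermis, with called members in red (higher in epidermis) or blue (higher in dermis), members not called as open circles and a bar at the list median. The medians ran from 3.81 to 6.69 for the first 7 epidermal lists and lay below 0 for the hair shaft, inner root sheath, dermal papilla, sebaceous, matrix and stromal cell lists. Members without counts in 1 tissue are drawn at their fitted value, which is no measured fold.

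The hair shaft keratins, although epithelial, did not lie on the epidermal side. Of 15 hair shaft keratin genes tested, none was higher in epidermis and 12 were higher in dermis, with a median log2 fold change of -6.04, or -5.01 with the members that lack counts in epidermis set to their bounds. Krt35, a keratin of the early cortex and cuticle of the hair shaft, stood at 1.35 and 0.619 CPM in epidermis and 16.8 and 21.3 CPM in dermis (-4.45 ± 0.68, FDR 0.000417). Krt33a stood at 0 and 0.354 CPM and 17.4 and 28.3 CPM (-6.51 ± 0.85, FDR 0.000112) and Krt34 at 0 and 0.295 CPM and 15.6 and 12.1 CPM (-6.04 ± 0.91, FDR 0.000279). Krt83 had no count in epidermis and 19.7 and 19.7 CPM in dermis, at least 165-fold. The dermis libraries were near each other for Krt35 and Krt83, and neither reached the other tissue's range.

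The inner root sheath molds the hair shaft as it grows, and most of its genes were on the dermal side too. Of 12 genes 10 were higher in dermis and 1 in epidermis, with a median log2 fold change of -3.41. Tchh, which encodes trichohyalin, stood at 12 and 30.01 CPM in epidermis and 267 and 203 CPM in dermis (-3.46 ± 0.45, FDR 0.00015). Krt71 stood at 1.35 and 21.6 CPM and 116 and 133 CPM (-3.36 ± 0.79, FDR 0.00578), Krt25 at 0.556 and 16.9 CPM and 105 and 105 CPM (-3.49 ± 0.85, FDR 0.00687) and Krt27 at 0.953 and 5.83 CPM and 88.5 and 84.1 CPM (-4.52 ± 0.60, FDR 0.000176). Of these 3 sheath keratins epidermis library 2 held several times more than library 1, while the dermis libraries lay close together. Padi1, a protein arginine deiminase also used in epidermis, was the member higher there at 14.4 and 10.7 CPM and 2.18 and 2.27 CPM (2.48 ± 0.62, FDR 0.00819). The call of Padi1 was lost under 3 of 13 other settings. With the older quasi-likelihood estimate of edgeR FDR was 0.0578 for Krt71 and 0.0761 for Krt25. With DESeq2 FDR was 0.0662 for Krt25, so its call was lost there too.

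The promoters of 4 follicle keratins are shown beside those of the envelope genes above, since these genes took the opposite side of the contrast and hold the same core, again in capitals. They lie at chr15:101743098-101743157 (minus strand) for Krt71, chr11:99322952-99323011 (minus) for Krt25, chr11:99337966-99338025 (minus) for Krt26 and chr11:100041555-100041614 (minus) for Krt34.
Krt71: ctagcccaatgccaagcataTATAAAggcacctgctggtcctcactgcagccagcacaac
Krt25: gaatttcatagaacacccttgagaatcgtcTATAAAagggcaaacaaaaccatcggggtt
Krt26: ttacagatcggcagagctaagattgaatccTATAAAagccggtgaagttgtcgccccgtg
Krt34: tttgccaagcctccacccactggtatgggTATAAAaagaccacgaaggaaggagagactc

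The core began 40, 30, 30 and 31 bases before the start in Krt71, Krt25, Krt26 and Krt34. It was present in 5 of 11 inner root sheath genes with a promoter entry (45.5%) and in 4 of 9 hair shaft keratin genes (44.4%), and in 2 of 10 matricellular genes (20%), 2 of 7 suprabasal genes and 3 of 13 interleukin-1 family genes. It was present in 0 of 11 collagen and 0 of 10 fibroblast genes that had an entry, and also in 0 of 7 basal keratinocyte, 0 of 14 barrier lipid, 0 of 10 junction and 0 of 10 epidermal transcription factor genes. A match is a description of these letters and not of a site in use. Krt26, which was named after its values were seen, stood at 0.0397 and 0.589 CPM in epidermis and 36.7 and 19.4 CPM in dermis (log2 fold change -6.06 ± 0.78, FDR 0.000122).

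Other compartments of the follicle had called members on both sides. The list counts in this paragraph stand against 20.9% higher in epidermis and 26.8% higher in dermis over all genes tested. Of 12 outer root sheath and companion layer genes, 6 were higher in epidermis and 3 in dermis, the latter near that share. Krt79, a keratin of the follicle's upper canal and sebaceous duct, stood at 4.61 and 14.8 CPM in epidermis and 137 and 195 CPM in dermis (log2 fold change -4.04 ± 0.51, FDR 0.000131), and Krt75, the companion layer keratin, at 1.51 and 2.64 CPM and 8.95 and 12.6 CPM (-2.3 ± 0.64, FDR 0.0138; named after its values were seen). Those on the epidermal side included Krt5, Krt14, Krt16 and Krt6a, which interfollicular epidermis shares. Of 11 transcription factors of the hair matrix, Ovol1, Gata3, Dlx3 and Foxn1 (named after its values were seen) were higher in epidermis and Lef1 in dermis. Gata3, which also acts in epidermal differentiation, stood at 209.6 and 236 CPM and 21.6 and 16.6 CPM (3.55 ± 0.34, FDR 2.42e-05), whereas Lef1, the nuclear partner of Wnt signals in the follicle, stood at 0 and 0.368 CPM and 4.06 and 4.22 CPM (-3.99 ± 1.02, FDR 0.0079). Of 16 genes linked to follicle stem cells, 2 were higher in epidermis and 5 in dermis, against 20.9% and 26.8% over all genes tested. The other 9 were not called, Sox9, Nfatc1 and Lrig1 among them. Lgr5 stood at 0 and 0.118 CPM and 118 and 121 CPM (-10.41 ± 0.63, FDR 6.03e-06; named after its values were seen) and Cd34 at 3.41 and 1.08 CPM and 219 and 264 CPM (-6.92 ± 0.54, FDR 9.64e-06), the latter a marker of vessels and fibroblasts as well. Krt15 lay on the epidermal side at 374 and 375 CPM and 37.8 and 120.3 CPM (2.24 ± 0.48, FDR 0.00354), and Lgr6 at 2.62 and 3.01 CPM and 0.335 and 0.617 CPM (2.57 ± 0.93, FDR 0.0418). The call of Lgr6 was lost under 9 of 13 other settings, FDR reaching 0.331 without dermis replicate 1. Single settings ended 3 more calls, with FDR of 0.129 for Krt75 without dermis replicate 2, 0.0858 for Lef1 with the older quasi-likelihood estimate and 0.0852 for Krt15 with all 11 wild-type libraries in the fit.

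Of 23 dermal papilla and condensate genes, 13 were higher in dermis and 1 in epidermis, against 26.8% and 20.9% over all genes tested. Spon1, which encodes the matrix protein spondin 1, stood at 12 and 4.17 CPM in epidermis and 622 and 527 CPM in dermis (log2 fold change -6.21 ± 0.55, FDR 1.67e-05) and Crabp1, a retinoic acid-binding protein, at 19 and 9.72 CPM and 209 and 194 CPM (-3.84 ± 0.40, FDR 3.99e-05). Trps1, a factor used by both follicle epithelium and papilla, overlapped at 44.5 and 25 CPM and 35.1 and 47.7 CPM (-0.26 ± 0.39, FDR 0.614). Bmp3 was the member higher in epidermis, at 28.6 and 16.2 CPM and 1.31 and 3.28 CPM (3.27 ± 0.64, FDR 0.00196). Of 17 sebaceous gland lipid genes, 11 were higher in dermis and 3 in epidermis, against the same shares. Scd1, the desaturase of sebum fatty acids, stood at 84.9 and 58.2 CPM and 135 and 270.2 CPM (-1.5 ± 0.39, FDR 0.00963). Elovl3, an elongase of the gland and follicle, stood at 0.953 and 0.383 CPM and 7.27 and 17.5 CPM (-4.44 ± 0.85, FDR 0.00169) and Pparg, a regulator of sebocytes and fat cells, at 0.199 and 0.265 CPM and 14.3 and 15.6 CPM (-5.91 ± 0.78, FDR 0.000115; both named after their values were seen). Dgat2, which makes triglycerides in many cells, was on the epidermal side at 163 and 272 CPM and 10.6 and 17.7 CPM (3.95 ± 0.42, FDR 4.18e-05), beside Acsbg1 and Fasn. FDR was 0.2 for Scd1 without dermis replicate 2 and 0.452 for Fasn with library size alone, and Fasn lost its call under 6 of 13 other settings.

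Beside these follicle results, the margin dermis libraries also held transcripts of the epidermis proper. Summed cornified envelope transcripts came to 539.9 and 935 CPM in the dermis libraries against 52760 and 47500 CPM in the epidermis libraries, and inner root sheath transcripts to 728 and 666 CPM in dermis against 41.1 and 110.2 CPM in epidermis. Collagen transcripts came to 3287 and 1104 CPM in the epidermis libraries against 108600 and 74540 CPM in dermis. The part of these in the follicle results was not tested.

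The wound center was set beside the margin with all 8 libraries scaled together. Inner root sheath transcripts summed to 702 and 654 CPM in margin dermis and 3.46 and 2.21 CPM in center dermis, and to 39.5 and 111 CPM in margin epidermis and 166 and 173 CPM in center epidermis. Hair shaft keratins summed to 122 and 153 CPM in margin dermis and 1.62 and 0.657 CPM in center dermis. In epidermis they summed to 6.41 and 11.9 CPM in the margin and 9.48 and 8.37 CPM in the center. By these sums, the tissue that held more of both lists changed between margin and center. The sums do not show single members, and Krt71 and Krt25 were near 0 in center epidermis. In the center contrast 4 inner root sheath and 3 hair shaft genes were tested, against 12 and 15 in the margin. Cornified envelope transcripts were also more abundant in margin dermis, at 521 and 919 CPM, than in center dermis, at 7.87 and 85.4 CPM, while endothelial transcripts were less abundant in margin epidermis, at 12.3 and 3.58 CPM, than in center epidermis, at 76.6 and 55.6 CPM. How far either shift bears on the genes below was not tested.

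**Figure D3:**
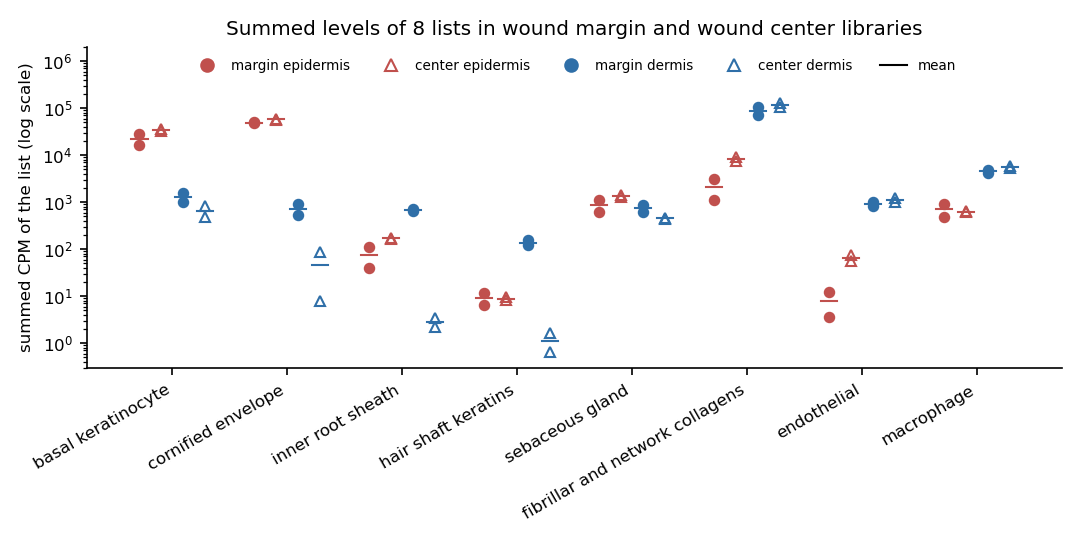
Summed CPM of 8 gene lists on a log axis in the wound margin (filled circles) and wound center (open triangles) libraries of each tissue, scaled together over 8 libraries, with a bar at each mean. Inner root sheath and hair shaft keratin sums were higher in margin dermis than in center dermis in every library, and endothelial and collagen sums were lower in margin epidermis than in center epidermis.

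The difference between the 2 tissue differences was tested as an interaction. Margin and center epidermis libraries also differed in their low counts, as given above, and the part of this in the calls was not tested. Of 15531 genes tested, 540 were called (3.48%), 21 with a difference that was more epidermal in the margin (0.135%) and 519 with one that was less so (3.34%), and 2479 genes had an unadjusted p under 0.05. In the same fit 366 genes differed between margin and center dermis (2.36%), 351 higher in the margin (2.26%) and 15 lower (0.0966%), and 966 differed between margin and center epidermis (6.22%), 173 higher in the margin (1.11%) and 793 lower (5.11%). Among the 519 genes, margin dermis was above center dermis for 238, margin epidermis was below center epidermis for 246, both held for 16, and neither for 51. By sign, 50 of the 519 were higher in dermis in the margin and higher in epidermis in the center. In every setting run more genes had a difference below 0 than above it, but the split moved. It was 129 above and 996 below with DESeq2, 113 and 1372 with the likelihood ratio test of edgeR, and 1 to 143 above and 162 to 1200 below with 1 library left out, the 1 without center epidermis replicate 2, the 162 without margin dermis replicate 2, and 143 and 1200 without margin epidermis replicate 2. The count of 540 moved with single libraries too. It was 278 without margin dermis replicate 1, 167 without replicate 2, 242 and 258 without center epidermis replicates 1 and 2, 220 and 278 without center dermis replicates 1 and 2, and 1343 without margin epidermis replicate 2.

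Tchh gave the lowest FDR of all and was among the genes that turned. In the fit of 8 libraries it stood at 11.6 and 30.3 CPM in margin epidermis and 258 and 199.7 CPM in margin dermis, but at 62.6 and 66.2 CPM in center epidermis and 0.938 and 0 CPM in center dermis (interaction on the log2 scale -10.46 ± 0.90, FDR 0.00106). Padi3, a deiminase of the inner root sheath, stood at 4.35 and 3.22 CPM and 12.8 and 12.4 CPM in the margin and at 25.8 and 22.8 CPM and 0 and 0 CPM in the center, an interaction of -9.5 or lower. Prr9, a proline-rich gene of the epidermal differentiation complex, stood at 7.06 and 11 CPM and 93.6 and 83.8 CPM in the margin and 10.3 and 18.7 CPM and 0 and 0 CPM in the center, an interaction of -10.31 or lower. In both genes the center dermis had no count, so the bound stands in place of a fitted value. Gprc5a, an orphan receptor, had no count in margin epidermis and stood at 2.3 and 0.989 CPM in margin dermis, 11.5 and 19.4 CPM in center epidermis and 0.18 and 0 CPM in center dermis, an interaction of -11.79 or lower. Tmem45b (-9.51 or lower) and Crnn, which encodes cornulin of the envelope (-9.12 or lower), completed the 5 with the lowest fitted interaction, an order that rests on fitted values over groups without counts and not on the bounds. Krt17 differed between the regions, standing at 176 and 289.8 CPM and 119.8 and 139 CPM in margin epidermis and dermis and at 518 and 903 CPM and 0.614 and 10.6 CPM in the center (-6.15 ± 0.95, FDR 0.00613). Krt15 stood at 359.6 and 378 CPM and 36.5 and 118 CPM in the margin and 579.7 and 440.1 CPM and 2.53 and 4.06 CPM in the center (-5.03 ± 0.69, FDR 0.00372), and Scd1 at 81.6 and 58.7 CPM and 130.2 and 265 CPM against 79.8 and 63.4 CPM and 12.1 and 28.2 CPM (-3.33 ± 0.60, FDR 0.0113). The sheath keratin Krt71 stood at 112 and 131 CPM in margin dermis and 0.144 and 0 CPM in center dermis (FDR 0.00322), and Krt25 at 101 and 103 CPM and 2.35 and 0 CPM (FDR 0.00624). Both were near 0 in center epidermis too, and their interactions were not called (FDR 0.984 and 0.934).

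The 21 genes of the other sign were led by Tnxb, which encodes the matrix protein tenascin X. It stood at 2.67 and 20.4 CPM in margin epidermis and 21.8 and 22.4 CPM in margin dermis, and at 0.0397 and 0.0244 CPM and 13.9 and 43.7 CPM in center epidermis and dermis (interaction 8.79 ± 1.86, FDR 0.0279). Its margin epidermis libraries lay far apart, and center epidermis held 2 and 1 counts, so the size of the interaction rests on few counts. Satb1, a chromatin organizer, followed at 3.51 ± 0.79, FDR 0.0355, with 13.3 and 19.96 CPM in margin epidermis and 2.29 and 2.03 CPM in center epidermis. Kcnj2 (3.11 ± 0.56, FDR 0.0114), Nsg1 (2.93 ± 0.58, FDR 0.019) and Cwc22 (2.9 ± 0.35, FDR 0.00217), a splicing factor, were next. Malat1, a nuclear long RNA named after its values were seen, was higher in epidermis in the margin and in dermis in the center, at 609 and 1254 CPM and 325 and 454 CPM against 285 and 301 CPM and 704 and 647 CPM (2.46 ± 0.48, FDR 0.019). In the margin alone, the call was lost under 7 of 13 other settings for Malat1 and 6 for Satb1, and FDR reached 0.448 for Malat1 with library size alone and 0.255 for Satb1 without dermis replicate 2.

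**Figure D4:**
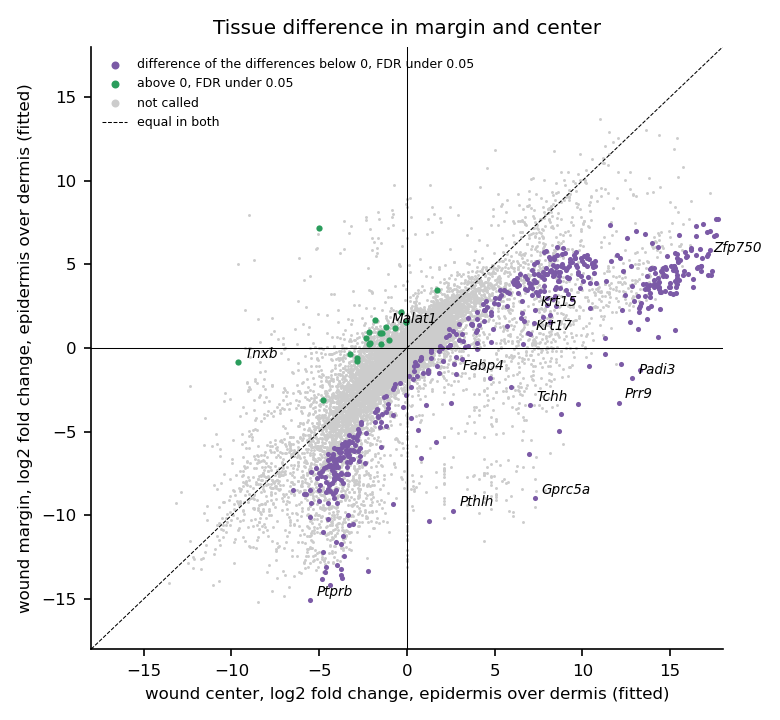
Fitted log2 fold change of epidermis over dermis in the wound center (x axis) against the wound margin (y axis) for 15531 genes, with genes called in the interaction in purple (519 below 0) or green (21 above 0) and the line of equal differences dashed. Tchh, Padi3, Prr9, Gprc5a and Pthlh lie below 0 in the margin and above 0 in the center. The axes end at 18 on either side, and genes with no count in 1 tissue are drawn at a fitted value that is no measured fold.

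Most margin calls had the same direction in comparisons that shared no library with them. The center contrast also set paired-end epidermis against single-end dermis, so tissue and read type cannot be told apart there either. Whether center and margin libraries came from the same animals is not given in the sources used here. In the center, 8038 of 14329 genes were called (56.1%), 4203 higher in epidermis (29.3%) and 3835 higher in dermis (26.8%), and 4955 and 4899 were called without center epidermis replicates 1 and 2. Of 3100 genes that were higher in margin epidermis and were tested in the center, 2701 were higher in center epidermis (87.1%, which is 64.7% of the center's own calls) and 3 were higher in dermis. Of 3508 genes that were higher in margin dermis, 2872 were higher in center dermis (81.9%, which is 76.2% of the center's) and 18 were higher in center epidermis. Malat1, Satb1 and Slc6a6 were the 3, and the 18 included Tchh, Tchhl1, Padi3, Prr9, Scd1, Fabp4, Pthlh, Gprc5a, Foxc1 and Stra6, those outside the naming rule being chosen after their values were seen.

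In the spiny mouse at PWD21, where 9409 of 14966 genes were called (62.9%), 4398 higher in epidermis (29.4%) and 5011 higher in dermis (33.5%), 1925 of 2941 margin epidermis genes were higher in epidermis (65.5%, 47.8% of that contrast's calls) and 176 were higher in dermis. Of 3609 margin dermis genes 2681 were higher in spiny dermis (74.3%, 59.1% of its calls) and 210 were higher in epidermis. Species, day, wound region and the way the tissues were parted all differ from the margin there, and reads of both species were counted on mouse genes. The main lists gave these values side by side. Cornified envelope genes had 27 of 27 higher in spiny epidermis and a median of 7.42, collagens had 15 of 15 higher in dermis and a median of -9.13, and inner root sheath genes had 7 of 12 higher in dermis and a median of -1.09. Tchh differed by -1.55 ± 0.41, FDR 0.0129 in the spiny mouse and Krt71 by -1.42 ± 0.40, FDR 0.0171. Krt17 differed by 4.21 ± 0.45, FDR 0.000165 and Krt79 by 3.47 ± 0.26, FDR 3.01e-05, both toward epidermis there.

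The basement membrane lies between the tissues, and its genes were found on both sides. Of 26 genes, 9 were higher in epidermis and 13 in dermis, against 20.9% and 26.8% over all genes tested. Col17a1, the transmembrane collagen of the hemidesmosome, stood at 977 and 1109 CPM in epidermis and 28.6 and 55.4 CPM in dermis (log2 fold change 4.63 ± 0.47, FDR 3.26e-05). Laminin chains that anchor basal keratinocytes were on the epidermal side, Lama3 at 311 and 270.5 CPM and 7.27 and 18.3 CPM (4.51 ± 0.46, FDR 3.58e-05) and Lamb3 at 90.7 and 136 CPM and 3.05 and 4.42 CPM (4.92 ± 0.42, FDR 1.53e-05; both named after their values were seen). Col4a1, a chain of the type IV network, lay on the dermal side at 12.4 and 5.47 CPM and 749 and 465 CPM (-6.13 ± 0.53, FDR 1.53e-05), as did Nid1, which encodes the linker nidogen, at 27.2 and 5.19 CPM and 675 and 581 CPM (-5.33 ± 0.69, FDR 0.000149). Col7a1, the anchoring fibril collagen that keratinocytes and fibroblasts both make, was not called at 159 and 307 CPM and 605 and 342 CPM (-1.02 ± 0.42, FDR 0.0686). Of 18 integrin genes, 4 were higher in epidermis and 11 in dermis, against 20.9% and 26.8% over all genes tested. Itga6, the partner of Itgb4 in hemidesmosomes, stood at 454 and 316 CPM and 124 and 114 CPM (1.69 ± 0.33, FDR 0.00213), Itgb6, a subunit that keratinocytes raise at wounds, at 18.7 and 18.3 CPM and 4.49 and 2.53 CPM (2.4 ± 0.56, FDR 0.00554), and the shared subunit Itgb1 was on the dermal side at 360.3 and 229 CPM and 1082 and 987 CPM (-1.81 ± 0.40, FDR 0.00412). Without dermis replicate 2 FDR was 0.0746 for Itgb6.

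Secreted signals and their receptors were examined by pathway, ligands first. The list counts below stand against 20.9% higher in epidermis and 26.8% higher in dermis over all genes tested. Of 14 Wnt ligand genes, 6 were higher in epidermis and 5 in dermis. Wnt4 stood at 153 and 268 CPM in epidermis and 6.6 and 9.71 CPM in dermis (log2 fold change 4.69 ± 0.42, FDR 1.85e-05), Wnt3 at 41.9 and 58.4 CPM and 2.18 and 6.56 CPM (3.52 ± 0.54, FDR 0.000435) and Wnt7b at 23.9 and 83.2 CPM and 1.88 and 3.44 CPM (4.34 ± 0.66, FDR 0.000426). Wnt5a, a ligand that mostly acts without beta-catenin, was on the dermal side at 23.7 and 25.4 CPM and 92.9 and 88.3 CPM (-1.88 ± 0.32, FDR 0.000878), with Wnt9a at 0 and 0.206 CPM and 29.6 and 21.7 CPM (-7.41 ± 0.84, FDR 3.56e-05). Of 29 Wnt receptors, inhibitors and nuclear factors, 4 were higher in epidermis and 13 in dermis. The coreceptor Lrp5 stood at 224 and 179 CPM and 27.3 and 30.6 CPM (2.8 ± 0.32, FDR 7.42e-05) and the receptor Fzd10 at 27.4 and 48 CPM and 1.64 and 3.28 CPM (3.94 ± 0.56, FDR 0.000263), whereas the secreted inhibitor Sfrp2 stood at 0 and 1.18 CPM and 294 and 142 CPM (-8.12 ± 0.74, FDR 1.85e-05). The coreceptor Lrp6 overlapped at 135 and 78.2 CPM and 88.8 and 103 CPM (0.15 ± 0.34, FDR 0.747).

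FGF ligand and receptor genes were found on both sides, and called EGF family genes on the epidermal side only. Fgf7, a growth factor that fibroblasts send to keratinocytes, stood at 0 and 0.0589 CPM in epidermis and 6.57 and 8.71 CPM in dermis (log2 fold change -7.38 ± 1.2, FDR 0.000551), and Fgf10 at 0 and 0.28 CPM and 5.5 and 2.83 CPM (-4.37 ± 1.08, FDR 0.00653; both named after their values were seen). Their receptor gene Fgfr2 was higher in epidermis at 232 and 152 CPM and 48.7 and 86.7 CPM (1.5 ± 0.38, FDR 0.0079), and Fgfr3 at 79.3 and 120.1 CPM and 8.85 and 9.19 CPM (3.47 ± 0.38, FDR 5.20e-05), while Fgfr1 was higher in dermis at 18.6 and 6.38 CPM and 177 and 156 CPM (-3.78 ± 0.49, FDR 0.000146). The ligand Fgf22 was higher in epidermis at 0.794 and 9.98 CPM and 0.536 and 0.325 CPM (3.77 ± 1.23, FDR 0.0273), its epidermis libraries lying far apart, and 5 of 13 other settings ended its call (FDR 0.711 without epidermis replicate 2). The receptor-like Fgfrl1 was higher in dermis at 1.51 and 0.972 CPM and 9.52 and 8.77 CPM (-2.97 ± 0.70, FDR 0.00597; named after its values were seen). Over the list 4 of 14 were higher in epidermis and 5 in dermis, against 20.9% and 26.8% over all genes tested. The EGF family lay in the epidermis with both ligands and receptors, 8 of 12 genes being higher there and none in dermis. Ereg, which encodes epiregulin, stood at 479 and 218 CPM and 6.4 and 8.09 CPM (5.59 ± 0.48, FDR 1.53e-05), Tgfa at 119.8 and 79.3 CPM and 9.45 and 6.79 CPM (3.61 ± 0.40, FDR 5.35e-05; named after its values were seen), and the receptor genes Egfr at 125 and 84.1 CPM and 31.8 and 51.7 CPM (1.32 ± 0.36, FDR 0.013) and Erbb2 at 105 and 126 CPM and 21.9 and 16 CPM (2.61 ± 0.34, FDR 0.000165). Of 11 PDGF, KIT and CSF1 genes, 7 were higher in dermis and none in epidermis. Pdgfra, the fibroblast receptor, stood at 4.96 and 0.928 CPM and 182 and 212 CPM (-6.26 ± 0.65, FDR 3.84e-05), and Kitl, the ligand of melanocytes and mast cells, at 6.91 and 8.55 CPM and 109 and 87.4 CPM (-3.65 ± 0.37, FDR 3.20e-05). With library size alone FDR was 0.176 for Fgfr2 and 0.307 for Egfr, and both also lost the call without dermis replicate 1, where Fgf10 stood at FDR 0.0902.

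Hedgehog, BMP and Notch genes, which pattern the follicle, came next. Of 13 Hedgehog genes 6 were higher in dermis and none in epidermis. The coreceptor Cdon stood at 9.45 and 15.1 CPM in epidermis and 84.5 and 121 CPM in dermis (log2 fold change -3.05 ± 0.39, FDR 0.000132), and the target and effector Gli1 at 0 and 0.766 CPM and 8.35 and 21.8 CPM (-4.85 ± 0.92, FDR 0.00161; named after its values were seen), whereas the transducer Smo was not called at 99.1 and 84.4 CPM and 56.7 and 82.6 CPM (0.40 ± 0.32, FDR 0.343). Of 21 TGF-beta and BMP genes 3 were higher in epidermis and 12 in dermis. The BMP side gave all that were higher in epidermis, with the ligand Bmp7 at 56.1 and 43.4 CPM and 4.12 and 5.46 CPM (3.37 ± 0.43, FDR 0.000141) and the receptors Bmpr1a at 472 and 260.3 CPM and 135 and 143 CPM (1.4 ± 0.36, FDR 0.00957) and Bmpr2 at 703 and 318 CPM and 141 and 134 CPM (1.89 ± 0.41, FDR 0.0038). The TGF-beta receptor Tgfbr2 was on the dermal side at 114 and 73.5 CPM and 327 and 438 CPM (-2.03 ± 0.36, FDR 0.00104). Of 12 Notch genes 4 were higher in epidermis, among them Notch2 at 148 and 188 CPM and 63 and 83.5 CPM (1.2 ± 0.32, FDR 0.0108), and 5 in dermis, among them the endothelial ligand Dll4 (named after its values were seen), which had no count in epidermis and was at least 114-fold higher. Of 6 genes of the ectodysplasin pathway, which starts hair placodes, 2 were higher in epidermis. The adaptor Traf6 stood at 337 and 267 CPM and 39.2 and 40.1 CPM (2.93 ± 0.33, FDR 5.82e-05) and Edaradd at 15.4 and 23 CPM and 1.54 and 5.36 CPM (2.48 ± 0.64, FDR 0.00963), and the ligand Eda was not called at 4.29 and 2.33 CPM and 9.89 and 9.0 CPM (-1.59 ± 0.63, FDR 0.0595). With library size alone FDR was 0.19 for Bmpr1a and 0.363 for Notch2, which also lost their calls without either dermis library, and it was 0.096 for Edaradd without dermis replicate 1.

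The interleukin-1 family, the alarm cytokines of barrier epithelia, lay largely in the epidermis. Of 14 genes 9 were higher in epidermis and 2 in dermis. The interleukin-36 ligand Il1f8 stood at 771 and 419 CPM in epidermis and 2.65 and 6.82 CPM in dermis (log2 fold change 6.97 ± 0.58, FDR 1.25e-05), Il1f9, another ligand of the same receptor, at 461 and 579 CPM and 8.58 and 16.5 CPM (5.37 ± 0.45, FDR 1.25e-05), and Il1f5, the antagonist, at 585 and 869 CPM and 7.64 and 33.2 CPM (5.15 ± 0.65, FDR 0.000123). Il1rn, the interleukin-1 receptor antagonist, stood at 498 and 379 CPM and 25.7 and 18.2 CPM (4.32 ± 0.38, FDR 1.63e-05). The receptor genes were on both sides. Il1r2, the decoy receptor, was higher in epidermis at 70.3 and 37 CPM and 10.7 and 5.91 CPM (2.68 ± 0.48, FDR 0.00115), as was the coreceptor Il1rap at 147 and 86.4 CPM and 42.3 and 42.9 CPM (1.45 ± 0.35, FDR 0.00654), and Il18r1 was not called (0.92 ± 0.60, FDR 0.234; these 3 named after their values were seen). Il1rap lost its call without either dermis library and with library size alone (FDR 0.151), and FDR was 0.0654 for Il1r2 with all 11 wild-type libraries in the fit. The 2 members higher in dermis were receptors, Il1r1 at 17.2 and 12.3 CPM and 82.8 and 51.1 CPM (-2.2 ± 0.40, FDR 0.00126) and Il1rl1, the receptor of interleukin-33, at 0 and 0.265 CPM and 96.4 and 53.6 CPM (-8.62 ± 0.74, FDR 8.38e-06).

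**Figure D5:**
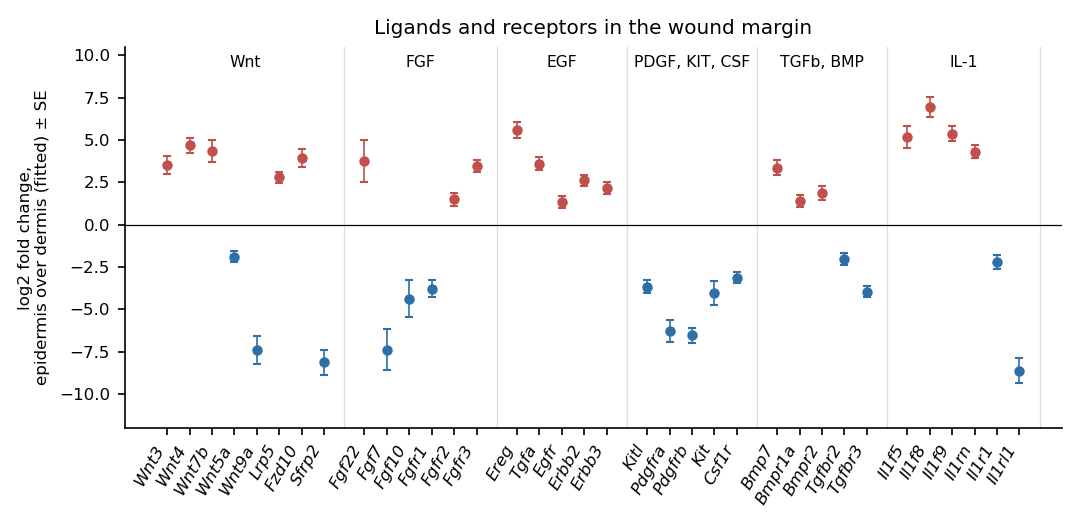
Fitted log2 fold change of epidermis over dermis with its SE for ligand and receptor genes of 6 pathways in the wound margin, all called at FDR under 0.05, with red above 0 (higher in epidermis) and blue below 0 (higher in dermis). Wnt3, Wnt4 and Wnt7b lie above 0 and Wnt5a, Wnt9a and Sfrp2 below, every EGF family gene shown lies above 0, and every PDGF, KIT and CSF1 gene shown lies below.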

How the data were processed

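Poly(A) RNA from hand-separated epidermis and dermis of wild-type PWD14 wounds was sequenced as strand-specific libraries. The authors aligned reads to mm10 with STAR (2.4.1d in the submitters' processing notes) and counted them per RefSeq gene with htseq-count 0.6.0, so the deposited values are raw counts per gene symbol. The strand setting of the counting and whether mates were counted singly are not given in the sources used here, so genes that overlap on opposite strands, and near-identical family members, are uncertain. Summary lines that name no gene were left out, and 60.14% to 65.66% of the reads of a margin library lay on genes, 23.35% to 29.8% being low in quality.

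Counts were filtered with filterByExpr, scaled by TMM (factors of 0.714 and 0.785 in epidermis, 1.29 and 1.39 in dermis) and tested with the quasi-likelihood test of edgeR 4.0.16 in R 4.3.3, two-sided, with Benjamini-Hochberg adjustment over all genes tested. The margin fit used its 4 libraries, and the interaction used 8. Fitted folds used a prior count of 0.125. For genes without counts in a tissue the fold is a lower bound from 3 counts per library. Alternatives were DESeq2 1.42.0, other edgeR tests, scalings and filters, other sets of libraries and leaving out each library. The members and the 42 gene lists, which hold 650 symbols, 642 of them in the files and 588 tested, were chosen with earlier results of these data known. Named genes were the 10 with the widest difference in each direction among called genes without overlap and with a mean of 10 CPM or more, the 4 most abundant members of each list with up to 2 called on its opposite side, the 5 widest interactions in each direction, and the Twist, Snai and Zeb genes. Of 24500 symbols, 23535 matched RefSeq.

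Promoters came from RefSeq on GRCm38.p6. Of 18 motifs examined, TATAAA was chosen after the shares were seen. The others were searched on both strands of the 250 bases before the start, overlaps between motifs being allowed: TGACTCA or TGAGTCA (the AP-1 letters), AACCGGTT alone and within a grainyhead set with AACCAGTT or AACTAGTT or AACTGGTT, GCCNNNGGC (AP-2), the CArG box, CAGATG or CATATG (E-boxes), GGGCGTGG or GGGTGTGG (Klf), GGGCGG (Sp), AGGAAGT or CGGAAGT (Ets), TTTATN (Hox), AGATAA (zinc finger factors of the Gata family), CTTTGAT (Tcf), TTGCNNAA (C/EBP), TGTGGT (Runx), GGAATG (Tead), CAGAC (Smad), and the short CANGC or CTNGC. The promoter table gave no entry for Krt1, Krt33a, Krt35, Krt83, Col1a1 and Lgr5. Results for some list members are not reported here.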

Additional observations from a re-analysis of the deposited data

Results flagged for a closer look

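Among 240 of the genes named here, 73 were called in the interaction test at FDR under 0.05. Their tissue difference in the wound margin differed from that in the wound center. Over all genes tested, 540 of 15531 were called (3.48%). The named genes include the widest interactions and genes chosen after their values were seen, so the count of 73 is partly set by that choice. The values are on the log2 scale, margin difference less center difference, so a value below 0 means that the gene was less epidermal, or more dermal, in the margin. Values marked as bounds are at most the number given, because 1 group had no count. The interaction was above 0 for Tnxb (8.79), Satb1 (3.51), Kcnj2 (3.11), Nsg1 (2.93), Cwc22 (2.9), Malat1 (2.46) and Timp3 (1.68).

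Epidermal differentiation genes were below 0, namely Lgals7 (-3.23), Sfn (-2.67), Dmkn (-4.94), Calml3 (-4.25), Asprv1 (-5.21), Sprr4 (-5.81), Lor (-6.41), Krt6b (-4.18), Krt6a (-2.82), Krt17 (-6.15), Elovl4 (-4.67) and Serpinb5 (-3.54). Junction and regulator genes were below 0 too, namely Dsp (-2.97), Perp (-4.38), Pkp1 (-4.31), Cdh1 (-2.25), Klf4 (-1.83), Ovol1 (-3.62) and Gata3 (-3.6). Bounds applied to Hrnr (-9.13), Crnn (-9.12), Tmem45b (-9.51), Grhl1 (-7.68), Zfp750 (-6.52), Padi1 (-6.34), Dlx3 (-6.97) and Itgb6 (-6.23).

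Follicle and gland genes below 0 were Tchh (-10.46), Krt15 (-5.03), Cd34 (-2.86), Spon1 (-2.34), Crabp1 (-2.02), Scd1 (-3.33), Dgat2 (-3.36) and Plin2 (-2.74), with bounds for Padi3 (-9.5) and Pthlh (-7.78). Bounds also applied to Prr9 (-10.31) and Gprc5a (-11.79), which are in none of the lists. Stromal genes below 0 were Fstl1 (-2.97), Dcn (-2.55), Acta2 (-3.16), Twist2 (-2.75), Emcn (-3.58), Pmp22 (-2.2), Mbp (-2.23), Fabp4 (-4.36), Col4a1 (-3.13), Pdgfrb (-3.12), Serping1 (-3.79) and Serpine2 (-4.22), with bounds for Ptprb (-5.01), Podxl (-5.19) and Vcam1 (-4.38). Signal and alarm genes below 0 were Fgfbp1 (-2.64), Fgfr3 (-3.38), Ereg (-2.99), Tgfa (-3.38), Il1f9 (-4.54), S100a9 (-6.41) and S100a8 (-5.95), with bounds for Wnt3 (-5.11), Fzd10 (-5.31), Bmp7 (-6.02), Il1f5 (-8.03) and Il1f8 (-5.21). Over all genes tested the median interaction was -0.305.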

How the results depend on the processing

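No paired analysis was possible because each library carries a number of its own and no label ties an epidermis library to a dermis library. In the margin, library size alone gave 1599 epidermis-high and 6192 dermis-high genes. Asking for 10 counts in every library, which leaves fewer genes tested, gave 2476 epidermis-high and 2396 dermis-high genes. The dermis-high excess of the main fit was therefore not seen under that filter. Leaving out 1 library gave 4508 to 7623 called genes, 1865 to 3490 higher in epidermis and 2642 to 4327 higher in dermis, and the lone library left in a tissue was then assumed to vary like the other tissue. DESeq2 called 6853 genes. With the epidermis counts halved, an alternative chosen after the data were seen, 6922 of 7021 called genes were also called in the same direction on the counts as deposited. Of the genes named here, no call turned direction under any setting run, though the fitted fold change took either sign for 20 genes that were not called, Tmem45b, Crnn, Cwc22, Snai2, Smo and Tpm2 among them. Of the genes named 38 lost their call under at least 1, and 20 that were not called, Krt1 and Krt10 among them, gained one. The interaction gave 1125 genes with DESeq2, 1485 with the likelihood ratio test of edgeR, 204 with 10 counts in every library and 167 to 1343 with 1 library left out. The center contrast gave 4899 to 10993 genes and the spiny mouse contrast 7610 to 10110 with 1 library left out. The cause of these shifts was not tested.

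A level under 3 counts in a library, which is 0.0442 to 0.119 CPM, was taken as not detectable, and 2 libraries per tissue limit every test. Asking for 10 counts in every library drops genes at or near 0 in a tissue, and it left 2 of 12 dermis-high hair shaft keratin genes, 4 of 16 endothelial, 3 of 13 dermal papilla, 8 of 16 small proteoglycan, 5 of 10 Schwann cell and 6 of 10 contractile genes. Leaving out 1 library left 8 dermal papilla genes (dermis replicate 1), 6 of 11 sebaceous genes (dermis replicate 2) and 3 of 5 adipocyte genes (dermis replicate 1 or epidermis replicate 2) on the dermal side, and no Notch gene on the epidermal side (either dermis replicate). The melanocyte, neutrophil, skeletal muscle and lymphocyte lists, whose members were few or low, also lost calls without single libraries. With the older quasi-likelihood estimate 6 of 10 inner root sheath genes were still called.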
